A study of Mus musculus with 8 samples.

Results

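Neurons make a set of proteins that most epithelial cells make little of: the machinery that loads, docks and fuses synaptic vesicles, granins of secretory granules, kinesins and filaments of the axon, and adhesion molecules of the nerve surface. The signals of 36 such genes, and of Rest, the gene of a zinc-finger repressor, were followed through butyrate treatment of a mouse colonic epithelial cell line. The 37 genes were found by their symbols in the platform annotation. They had 63 probe sets, and each gene was read from the probe set with the highest mean over the 8 arrays. The other 26 probe sets, of 18 genes, changed at 24 h in the direction of the one used in 20 cases and in the opposite direction in 6, those of Syp, Ncam1, Gria2, Syn2, Ina and Rest, and 22 of the 26 were dim. All 37 were measured, among 12393 genes of the array that were named by a probe set of 1 gene.

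The cells were MCE301, a mouse colonic epithelial line from transgenic mice whose transgene is a temperature-sensitive large T-antigen of a simian virus, and every group carries that transgene. Sodium butyrate, a product of gut bacteria that blocks histone deacetylases, was given at 2 mM for 0, 6, 12 or 24 h, and each time has 2 arrays. No untreated cells were measured at the later times, so hours in culture and butyrate cannot be told apart. The labels name 1 cell line and do not say whether the 2 arrays of a time were separate cultures, so p-values measure only how far these arrays spread, and that spread may be technical.

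REST, also called NRSF, binds a long DNA element known as RE1 beside many neuronal genes in non-neuronal cells, and recruits corepressor complexes that hold histone deacetylases. RE1 has a left and a right arm with a short spacer. In the gut, some of these genes are also used by enteroendocrine cells and by neurons of the gut wall. The vesicle proteins have relatives that most cells use for their own membrane traffic.

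Signals are linear intensities with the arrays scaled to a common trimmed mean of 500.2. Array medians were 140.1 to 152.8, and the 2 arrays of a time correlated at r of 0.979 to 0.982 across probe sets. Changes are differences of log2(signal + 32), given with their standard error, and the added 32 understates the change of a dim gene. A gene was called where limma's p, adjusted by Benjamini-Hochberg over all genes tested, lay below 0.05. The 7340 genes with a probe set above 144.7 on at least 2 arrays were tested together, and this filter kept 16 of the 37 genes. The other 21 were too dim for it and were tested only in a second fit of all 12393 genes. Signals of different probe sets cannot be set against each other, so every comparison below is within a gene.

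With every gene tested, 2 of the 37 genes were higher at 6 h than at 0 h, 13 at 12 h and 19 at 24 h. The share of all genes called higher was 2.19% at 6 h, 8.09% at 12 h and 13.5% at 24 h. The share of these 37 was 5.41%, 35.1% and 51.4% at the same times. The 37 were chosen with earlier results of these data known, so these shares describe them and are not an independent test. Lower calls among the 37 numbered 0, 1 and 0, where 1.27%, 7.24% and 11.1% of all genes were called lower. The median log2 change of the 37 was 0.20 at 6 h, 0.51 at 12 h and 0.89 at 24 h, against 0.00, 0.02 and 0.07 over all genes. The 2 arrays of 24 h both lay above both arrays of 0 h for 26 of the 37 and both below for 2, where all genes gave 35.0% and 26.3%. All of these counts share the 0 h arrays. When 1 array was left out, the count of higher genes was 14 to 18 at 24 h. At 12 h it was 7 to 13, with 7 without the first 0 h array, 8 without the second and 7 without the second 12 h array. At 6 h it was 0 without any 1 of the 0 h or 6 h arrays and 2 without any other.

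The dim and the brighter genes had different backgrounds. Of the 21 dim genes, 8 were higher at 24 h (38.1%), where 6.15% of all 5053 dim genes were. Of the 16 brighter ones, 11 were higher (68.8%), where 18.6% of all 7340 were, but the filter kept some of them through their 24 h signals. The 24 h arrays also held fewer signals below 32 than the others: 21.2% and 22.5% of their probe sets, against 25.4% and 23.9% on the 0 h arrays, and the part of this shift in the dim genes was not tested.

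**Figure D1:**
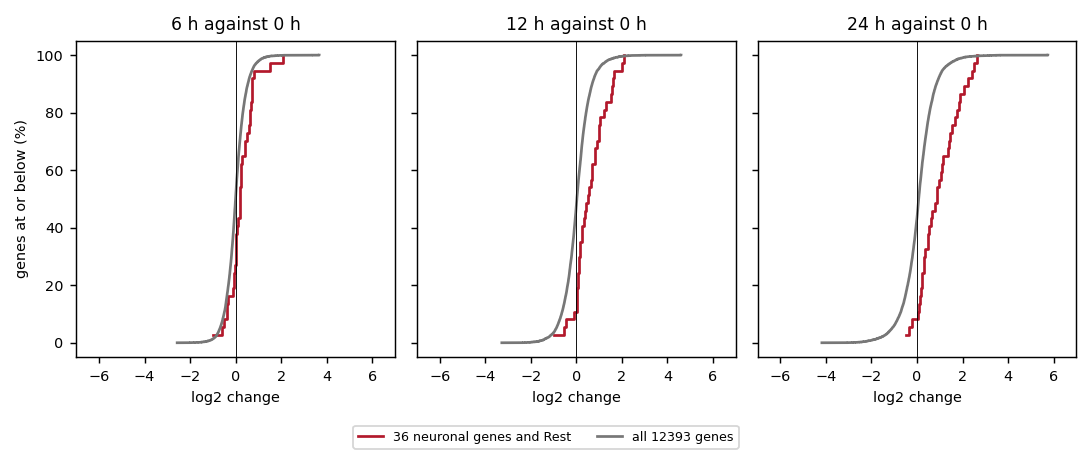
Cumulative share of genes (vertical axis, %) by log2 change of signal + 32 (horizontal axis) at 6, 12 and 24 h, each against 0 h; red, the 36 neuronal genes and Rest, grey, all 12393 genes. The red curve lies to the right of the grey one over most of its length at 12 and 24 h, with medians of 0.51 and 0.89 against 0.02 and 0.07.

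The promoters of 4 of these genes are printed first, because 2 of them (Rab3a and Kif5c) were the genes called at 6 h in both fits and the other 2 (Syn1 and Scg2) hold the left arm of RE1. Each sequence is a RefSeq promoter of assembly GRCm38.p6, on the strand of the gene, from 250 bases before the start of transcription to 50 bases after it. Capitals mark the motifs found: the left arm of RE1 (TTCAGCACC), a cyclic AMP response element (TGACGTCA), a GC box (GGGCGG) and a TATA box (TATAAA), each searched on both strands and chosen after the values were seen. Rab3a has 2 entries, and the other one, chr8:70754852-70755151, holds none of these motifs.
Rab3a, chr8:70754453-70754752, plus strand: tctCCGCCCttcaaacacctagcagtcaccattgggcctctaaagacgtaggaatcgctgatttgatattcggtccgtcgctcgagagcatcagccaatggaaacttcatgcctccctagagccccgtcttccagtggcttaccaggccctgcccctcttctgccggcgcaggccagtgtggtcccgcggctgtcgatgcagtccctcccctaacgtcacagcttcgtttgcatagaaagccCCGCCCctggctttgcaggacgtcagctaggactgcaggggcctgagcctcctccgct
Syn1, chrX:20920869-20921168, minus strand: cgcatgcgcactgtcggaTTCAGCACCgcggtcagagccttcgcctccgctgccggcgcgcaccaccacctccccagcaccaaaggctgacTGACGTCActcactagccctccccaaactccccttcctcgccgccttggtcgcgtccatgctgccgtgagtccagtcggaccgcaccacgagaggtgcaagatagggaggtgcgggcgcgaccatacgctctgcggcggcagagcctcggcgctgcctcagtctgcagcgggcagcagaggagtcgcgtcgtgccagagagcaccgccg
Scg2, chr1:79439977-79440276, minus strand: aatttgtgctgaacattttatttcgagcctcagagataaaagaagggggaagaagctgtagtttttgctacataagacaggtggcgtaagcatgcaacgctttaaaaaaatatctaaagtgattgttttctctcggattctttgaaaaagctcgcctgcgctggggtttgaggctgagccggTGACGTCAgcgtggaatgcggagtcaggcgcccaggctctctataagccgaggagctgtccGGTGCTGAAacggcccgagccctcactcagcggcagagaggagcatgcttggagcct
Kif5c, chr2:49619036-49619335, plus strand: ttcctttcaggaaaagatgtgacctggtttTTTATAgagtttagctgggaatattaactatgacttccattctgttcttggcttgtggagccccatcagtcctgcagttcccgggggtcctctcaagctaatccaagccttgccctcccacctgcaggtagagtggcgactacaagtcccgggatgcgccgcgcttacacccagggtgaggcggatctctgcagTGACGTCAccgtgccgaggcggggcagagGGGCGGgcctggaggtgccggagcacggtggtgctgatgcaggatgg
The left arm began 232 bases before the start of Syn1, on the gene's strand. In Scg2 the left arm lay on the opposite strand and, read on that strand, ended 7 bases before the start. It stood in 0.371% of all 32851 promoters. In Scg2 it was followed, with 0 bases between, by GGACAG, the first letters of the right arm. A left arm with GGACAG within 10 bases stood in 13 promoters of all genes (0.0396%), and Scg2 was the 1 match among the 32 promoters of these genes. With the usual spacer of 2 bases there were 4 matches in all promoters and 0 here. The longer right arm, GGACAGCGC, stood in the promoter of Gria2 (0.405% of all promoters).

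Promoters were in the table for 26 of the 37 genes, with 32 entries. The cyclic AMP element stood in 4 of the 32, those of Syn1, Scg2, Kif5c and Chgb, and in 1.79% of all promoters. It began 159, 68 and 26 bases before the start of Syn1, Scg2 and Kif5c. GC boxes stood in 21 of the 32 (65.6%), against 35.7% of all promoters, and TATA boxes in 4 of the 32, against 13.6% of all. The matches name letters in these windows and not bound sites. Rest, Gap43, Nefl, Mapt, Ncam1, Dpysl3, Snap25, Stmn2, Kif5a, Nefm and Vamp2 had no entry.

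The vesicle and synapse genes numbered 11, and 6 were called higher at 24 h with every gene tested: Rab3a, Snap25, Syp, Syn1, Snap91 and Sh3gl3. Of all genes, 13.5% were called higher in that fit. The median log2 change of the 11 was 0.78, against 0.07 over all genes. Rab3a, the small GTPase of synaptic vesicles that acts before their release, was already called at 6 h. Its signals were 52.5 and 26.5 at 0 h, 287.9 and 236.4 at 6 h, 282.5 and 250 at 12 h, and 426.2 and 387.9 at 24 h. Every treated array lay above both 0 h arrays, and the signals of 6 h and 12 h overlapped. Its log2 change was 2.06 ± 0.20 at 6 h (adjusted p = 0.00031), 2.08 ± 0.20 at 12 h (8.08e-05) and 2.64 ± 0.20 at 24 h (7.52e-06). All 3 calls held under each alternative that changed 1 choice, the test of every gene included (0.0085, 0.00227 and 0.00036). With every gene tested, however, the 6 h call of Rab3a was lost without any 1 of the 0 h or 6 h arrays. It was also lost there with only the 0 h and 6 h arrays fitted. The RNA came from whole cultures, so more RNA per cell and more cells with it cannot be told apart here.

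Sh3gl3 encodes endophilin A3, which bends membranes during endocytosis, and it was called at 12 and 24 h. Its signals were 45.9 and 14.3 at 0 h, 13.5 and 8.1 at 6 h, 167.1 and 149.3 at 12 h, and 255.4 and 246.4 at 24 h. The 6 h arrays were the lowest and the 12 h and 24 h arrays stood far above them. The log2 change was -0.49 ± 0.23 at 6 h (adjusted p = 0.172), 1.66 ± 0.23 at 12 h (0.000443) and 2.24 ± 0.23 at 24 h (3.48e-05). Sh3gl3 passed the filter through its 12 h and 24 h arrays alone. With every gene tested, its adjusted p was 0.00597 at 12 h and 0.000956 at 24 h. Without the second 0 h array the 6 h value was -0.87 and passed (0.0366). Between 6 and 12 h it was higher by 2.15 ± 0.23 (0.0027, or 0.0682 with every gene tested).

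Syn1 encodes synapsin I, which clusters vesicles in the nerve ending. Its signals were 64.7 and 18.3 at 0 h, 65.6 and 98.2 at 6 h, 121.8 and 93.5 at 12 h, and 240.4 and 203.6 at 24 h. The 24 h arrays were clear of all others, while the 0 h pair was wide apart. Its log2 change came to 0.69 ± 0.28 at 6 h (adjusted p = 0.125), 0.99 ± 0.28 at 12 h (0.019) and 1.86 ± 0.28 at 24 h (0.000429). Syn1 passed the filter through its 24 h arrays alone, and with every gene tested the adjusted p at 24 h was 0.00511. The 12 h call was lost without the second 0 h array (0.158), without the first 12 h array (0.105) and with every gene tested (0.0741). At 6 h the value passed without the first 0 h array (1.16, 0.0267).

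Stx1a encodes syntaxin 1A, a SNARE of the plasma membrane, and was highest at 6 and 12 h. Its signals were 276.2 and 299.5 at 0 h, 496.5 and 543.4 at 6 h, 508.2 and 466.4 at 12 h, and 456.3 and 377.0 at 24 h. All 6 treated arrays lay above both 0 h arrays. Against 0 h, the log2 change was 0.79 ± 0.16 at 6 h (adjusted p = 0.0101), 0.70 ± 0.16 at 12 h (0.00766) and 0.48 ± 0.16 at 24 h (0.0305). The 6 h and 24 h calls were lost with every gene tested (0.0504 and 0.0748). Leaving out the first 0 h array ended the call at 6 h (0.069), at 12 h (0.0516) and at 24 h (0.135). The call was also lost at 6 h without the second 6 h array (0.0542), at 12 h without the first 12 h array (0.0504), and at 24 h without the second 0 h (0.0716) or the first 24 h array (0.182). A second probe set above the filter gave 0.34 at 24 h, and the name of the main one marks it as able to match related transcripts.

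Snap25, the partner SNARE of syntaxin, was dim throughout. Its signals were 13.3 and 2.4 at 0 h, 18.2 and 24.6 at 6 h, 35.9 and 63.9 at 12 h, and 62.0 and 90.3 at 24 h. The 12 h and 24 h pairs lay above the 0 h and 6 h pairs. The log2 change with every gene tested was 1.03 ± 0.24 at 12 h (adjusted p = 0.0289) and 1.44 ± 0.24 at 24 h (0.00506), and the 12 h call was lost without either 0 h array (0.0629 and 0.154) or the second 12 h array (0.151).

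Syp and Snap91 were the other called vesicle genes. Syp, synaptophysin of the vesicle membrane, had 67.2 and 62.9 at 0 h, 60.9 and 102.8 at 6 h, 136.8 and 105.7 at 12 h, and 155.1 and 141.7 at 24 h. Its 24 h pair was clear of all earlier arrays, with a log2 change of 0.89 ± 0.22 (adjusted p = 0.0209 with every gene tested), and the call was lost without either 0 h array (0.0801 and 0.0982) or either 24 h array (0.0934 and 0.0681). A second Syp probe set, also dim, had 64.3 and 40.2 at 24 h, against 53.9 and 52.8 at 0 h (-0.03), and did not share the change. Snap91, the clathrin assembly protein AP180, had signals of 4.5 to 52.4 and a log2 change of 0.78 ± 0.22 at 24 h (0.0335), which was lost in 10 of 15 alternatives, with an adjusted p of up to 0.177 without the second 0 h array.

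The calcium sensor Syt1, the vesicle SNARE Vamp2, the synapsin Syn2 and the glutamate receptor subunit Gria2 were called at none of the 3 times. Vamp2 had 220.2 and 129.5 at 24 h, against 142.8 and 122.5 at 0 h (0.30 ± 0.23, adjusted p = 0.323). Syt1 had 45.4 and 35.7 at 24 h, against 32.8 and 45.7 at 0 h (0.03 ± 0.22, 0.944 with every gene tested). Snap25 and Stx1a passed at 1 or more times, whereas the probe sets used for Vamp2 and Syt1 were called at none. A second, dim Vamp2 probe set was not tested in this fit and had 85.9 and 55.3 at 24 h, against 33.2 and 21.5 at 0 h (0.78). Gria2 was lower at 6 h, with 22.7 and 55.4 against 107.2 and 102.1 at 0 h, and this did not pass (-0.98 ± 0.23, 0.065). Syn2 had 97.2 and 10.1 on its 24 h arrays, against 54.6 and 52.0 at 0 h, so that its 24 h pair spans all earlier signals.

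**Figure D2:**
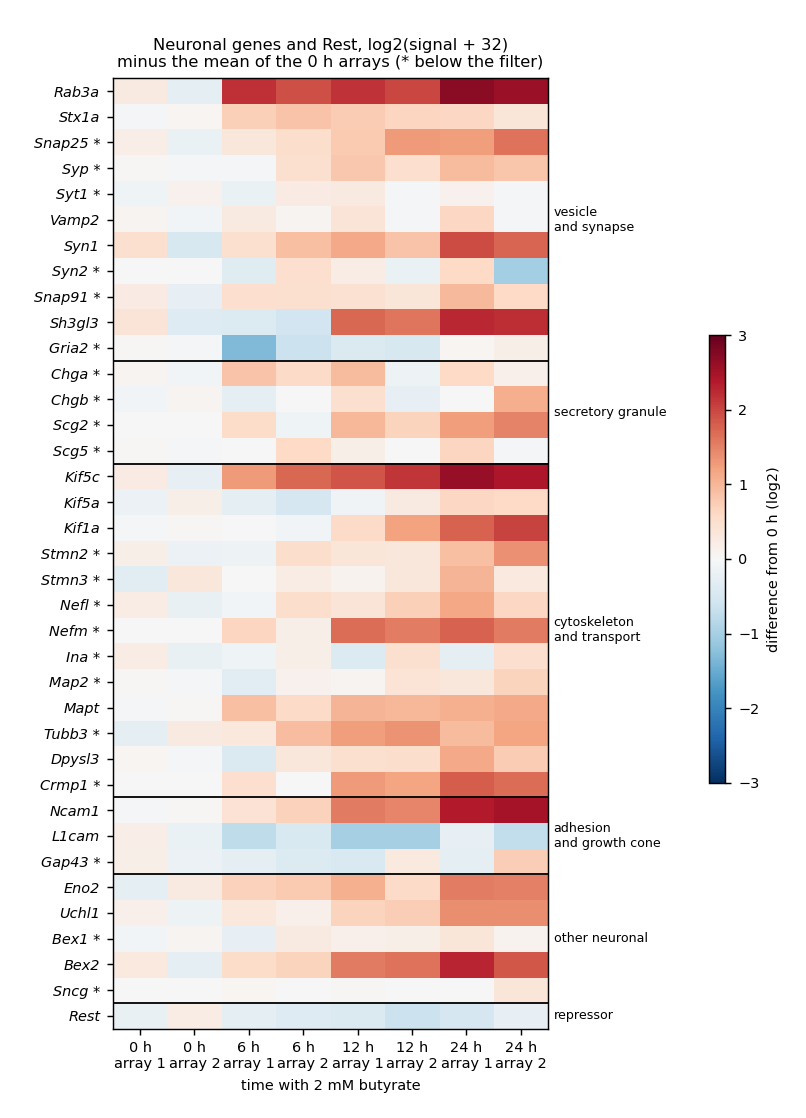
Log2(signal + 32) of each of the 36 neuronal genes and Rest on each of the 8 arrays (columns, hours with 2 mM butyrate) minus the mean of the 2 arrays of 0 h; rows are grouped by role and an asterisk marks the 21 genes below the filter. Rab3a and Kif5c are red from 6 h, Sh3gl3, Nefm, Crmp1, Ncam1 and Bex2 from 12 h, and L1cam and Rest are blue on all treated arrays.

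The 4 secretory granule genes were all below the filter. Granins form the dense core of hormone granules. With every gene tested, 1 of the 4, Scg2 (secretogranin II), was called higher at 24 h, where 13.5% of all genes were. With only 4 genes, 1 call is not read as a result about the group. Scg2 had 7.2 and 6.3 at 0 h, 24.6 and 3.2 at 6 h, 45.8 and 29.9 at 12 h, and 59.7 and 77.5 at 24 h. The 24 h pair was the highest, with a log2 change of 1.37 ± 0.25 (adjusted p = 0.0072 with every gene tested), and this held under the 15 alternatives run with every gene tested. At 12 h the change was 0.84 ± 0.25 and did not pass (0.0624), although it did without either 6 h array (0.0354 for each). Chga, chromogranin A, ranged from 6.6 to 50.6, Chgb, chromogranin B, from 1.3 to 53.5, and Scg5, a chaperone of a prohormone convertase, lay below 32 on all 8 arrays. Their adjusted p-values at 24 h were 0.513, 0.367 and 0.493.

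The cytoskeleton and transport genes numbered 13, and 8 were called higher at 24 h with every gene tested: Kif5c, Kif1a, Stmn2, Nefm, Mapt, Tubb3, Dpysl3 and Crmp1. Of all genes, 13.5% were called higher in that fit. The median log2 change of the 13 was 1.07, against 0.07 over all genes. At 12 h 6 of the 13 were called, where 8.09% of all genes were. The medians at 12 h were 0.56 and 0.02. Kif5c is a heavy chain of kinesin-1, the motor of fast axonal transport. Its signals were 16.1 and 2.5 at 0 h, 67.4 and 102.1 at 6 h, 119.1 and 146.8 at 12 h, and 217.2 and 186.3 at 24 h. No pair of arrays overlapped with the pair before it. On the log2 scale the change was 1.5 ± 0.21 at 6 h (adjusted p = 0.0019), 2.01 ± 0.21 at 12 h (0.000128) and 2.52 ± 0.21 at 24 h (1.32e-05). Kif5c passed the filter through its 12 h and 24 h arrays alone. All 3 calls held under each alternative that changed 1 choice, the test of every gene included (0.021, 0.00281 and 0.000541). With every gene tested, however, the 6 h call of Kif5c was lost without any 1 of the 0 h or 6 h arrays. It was also lost there with only the 0 h and 6 h arrays fitted.

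Kif1a, the kinesin-3 that carries vesicle precursors down the axon, was not called at 6 h. Its signals were 41.1 and 44.2 at 0 h, 43.8 and 38.4 at 6 h, 79.3 and 140.4 at 12 h, and 221.7 and 272.3 at 24 h. The 0 h and 6 h pairs overlapped and each later pair stood above the one before. The fitted log2 change was -0.03 ± 0.21 at 6 h (adjusted p = 0.945), 0.89 ± 0.21 at 12 h (0.00836) and 1.90 ± 0.21 at 24 h (6.42e-05). Kif1a passed the filter through its 24 h arrays alone. With every gene tested, its adjusted p was 0.0383 at 12 h and 0.00134 at 24 h. The 12 h call was lost without the first 0 h array (0.0505) or the second 12 h array (0.0725), and a second probe set gave 1.43 at 24 h.

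Kif5a, the other neuronal kinesin-1 heavy chain of the set, had 159.4 and 155.2 at 24 h, against 78.2 and 106.6 at 0 h. It passed the filter only through these 24 h arrays, and its 24 h value passed there (0.62 ± 0.19, adjusted p = 0.0205). That call was lost with every gene tested (0.0617) and without the first 0 h array (0.149) or either 24 h array (0.0804 and 0.0665). The name of its probe set marks it as able to match related transcripts.

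Mapt encodes tau, which binds axonal microtubules. Its signals were 154.6 and 165.8 at 0 h, 327.6 and 252.3 at 6 h, 358.6 and 349.8 at 12 h, and 372.7 and 392.5 at 24 h. All treated arrays lay above the 0 h pair, and the 12 h and 24 h arrays above the 6 h pair. The log2 change was 0.73 ± 0.17 at 6 h (adjusted p = 0.0155, or 0.0656 with every gene tested), 1.01 ± 0.17 at 12 h (0.00126) and 1.11 ± 0.17 at 24 h (0.000397). The 6 h call was lost without either 0 h array (0.0875 and 0.063) or the first 6 h array (0.0912). Map2, the dendritic relative of tau, ranged from 21.4 to 73.2 and was not called (0.50 ± 0.22 at 24 h, 0.141 with every gene tested).

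Of the 3 neuronal intermediate filament genes, Nefm passed and Nefl and Ina did not. Nefm, the medium neurofilament chain, had 1.4 and 1.6 at 0 h, 20.1 and 5.6 at 6 h, 74.2 and 64.7 at 12 h, and 81.3 and 66.0 at 24 h. The 12 h and 24 h pairs overlapped with each other and with no earlier array. Its log2 change was 1.60 ± 0.20 at 12 h (adjusted p = 0.0035 with every gene tested) and 1.65 ± 0.20 at 24 h (0.00132). Nefl, the light chain, had 95.8 and 55.5 at 24 h, against 34.4 and 17.2 at 0 h (0.89 ± 0.29, 0.0627). Ina, internexin, had 33.1 and 78.8 at 24 h, against 59.2 and 36 at 0 h (0.11 ± 0.36, 0.871).

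The growth cone phosphoproteins of the collapsin response family both passed at 24 h. Crmp1 had 9.1 and 10.2 at 0 h, 26.7 and 9.7 at 6 h, 69.1 and 62.4 at 12 h, and 114.7 and 100.5 at 24 h. Its 12 h and 24 h pairs were each clear of all earlier arrays, with log2 changes of 1.23 ± 0.20 (adjusted p = 0.00799 with every gene tested) and 1.74 ± 0.20 (0.00106). The 12 h call was lost without the first 0 h array (0.0506). Dpysl3 had 329.7 and 247.5 at 24 h, against 140.0 and 124.8 at 0 h (0.95 ± 0.24, 0.00782). That call was lost without the second 0 h array (0.0514) or the first 24 h array (0.0642), and Dpysl3 passed at 12 h (0.51) without either 6 h array (0.0459 for each) but not with all arrays (0.121). With every gene tested the 24 h call had an adjusted p of 0.035, or 0.0502 with the replicate number as a block.

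Tubb3, the neuronal class III beta-tubulin, and Stmn2, a growth cone protein that binds tubulin, were dim and were called. Tubb3 had 15.1 and 35.5 at 0 h, 37.9 and 74.6 at 6 h, 102.2 and 112.5 at 12 h, and 77 and 96.1 at 24 h. It was highest at 12 h, with log2 changes of 1.30 ± 0.26 at 12 h (adjusted p = 0.0161 with every gene tested) and 1.07 ± 0.26 at 24 h (0.0212). Both calls were lost without the first 0 h array (0.0943 and 0.124), the 12 h call without either 12 h array (0.0659 and 0.0883), and the 24 h call without either 24 h array (0.0577 and 0.104). Stmn2 had 38.5 and 66.7 at 24 h, against 11.1 and 1.4 at 0 h (1.14 ± 0.28, 0.0209), a call lost without either 0 h array (0.0505 and 0.12) or the second 24 h array (0.113). Its relative Stmn3 had 97.1 and 45.7 at 24 h, against 18.0 and 48.2 at 0 h, and the pairs overlapped (0.66 ± 0.31, 0.165).

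The adhesion and growth cone genes numbered 3, and they differed from each other. Ncam1, the neural cell adhesion molecule, had signals of 186.6 and 195.9 at 0 h, 269.1 and 330.2 at 6 h, 624.1 and 581.5 at 12 h, and 1126.6 and 1219.6 at 24 h. Each pair stood above the pair before it, with log2 changes of 0.57 ± 0.16 at 6 h (adjusted p = 0.0387), 1.51 ± 0.16 at 12 h (0.000129) and 2.43 ± 0.16 at 24 h (4.1e-06). The 6 h call was lost in 11 of 17 alternatives, among them leaving out any of the 8 arrays (0.0504 to 0.182) and testing every gene (0.113). Ncam1 was also higher at 12 h than at 6 h (0.94 ± 0.16, 0.0147) and at 24 h than at 12 h (0.92 ± 0.16, 0.00859), and its 3 probe sets above the filter gave 1.34 to 2.43 at 24 h, while a dim one stayed between 2.5 and 8.9 on all 8 arrays.

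L1cam, the other immunoglobulin adhesion molecule, moved the other way. Its signals were 1401.0 and 1044.2 at 0 h, 704.8 and 867.5 at 6 h, 592.0 and 585.9 at 12 h, and 1014.8 and 709.4 at 24 h. All 6 treated arrays lay below both 0 h arrays, and the 12 h pair was the lowest. Its log2 change came to -0.61 ± 0.21 at 6 h (adjusted p = 0.0804), -1.0 ± 0.21 at 12 h (0.00504) and -0.50 ± 0.21 at 24 h (0.0784), so L1cam fell at 12 h. That call held under each alternative that changed 1 choice (0.0276 with every gene tested), but with every gene tested it was lost without any 1 of the 0 h or 12 h arrays. At 24 h it passed without the first 24 h array (-0.74, 0.0338). Gap43, the growth cone protein, lay below 32 on 7 of the 8 arrays and was not called.

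The 5 other neuronal genes gave 3 higher calls at 24 h with every gene tested, Eno2, Uchl1 and Bex2, where 13.5% of all genes were called. Uchl1, a deubiquitinase abundant in neurons, had signals of 1709.1 and 1361.1 at 0 h, 1908.5 and 1708.3 at 6 h, 2430.9 and 2583.4 at 12 h, and 4072.7 and 4047.1 at 24 h. The 6 h pair overlapped with 0 h, and the 12 h and 24 h pairs stood clear. Against 0 h, the log2 change was 0.24 ± 0.17 at 6 h (adjusted p = 0.381), 0.70 ± 0.17 at 12 h (0.00835) and 1.39 ± 0.17 at 24 h (0.000101). The 12 h call was lost without the second 0 h array (0.0727) or the second 12 h array (0.0517).

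Bex2, a brain-expressed X-linked gene, had 46.1 and 19.5 at 0 h, 61.3 and 68.4 at 6 h, 153.7 and 163.8 at 12 h, and 278.6 and 196.9 at 24 h. Each pair stood above the pair before it, with log2 changes of 0.61 ± 0.22 at 6 h (adjusted p = 0.0902), 1.59 ± 0.22 at 12 h (0.0005) and 2.07 ± 0.22 at 24 h (4.8e-05). Bex2 was kept by the filter through its 12 h and 24 h arrays alone. With every gene tested, its adjusted p was 0.00648 at 12 h and 0.00116 at 24 h. At 6 h it passed without the first 0 h array (0.91, 0.049). Eno2, the neuronal enolase of glycolysis, had 34.3 and 63.5 at 0 h, 96.1 and 105.4 at 6 h, 133.9 and 86.8 at 12 h, and 197.7 and 193.7 at 24 h. The 6 h and 12 h pairs overlapped, and all treated arrays lay above the 0 h pair. Its log2 change was 0.74 ± 0.21 at 6 h (0.0422), 0.82 ± 0.21 at 12 h (0.0137) and 1.52 ± 0.21 at 24 h (0.000293). Eno2 passed the filter through its 24 h arrays alone, and with every gene tested the adjusted p at 24 h was 0.00362. The 6 h call was lost in 10 of 16 alternatives, with 0.272 without the first 0 h array, 0.104 and 0.147 without either 6 h array and 0.0583 without either 24 h array. The 12 h call was lost without the first 0 h array (0.119), the first 12 h array (0.11) and with every gene tested (0.0542). Bex1 and the synuclein Sncg lay below 32 on all 8 arrays, and neither was called.

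**Figure D3:**
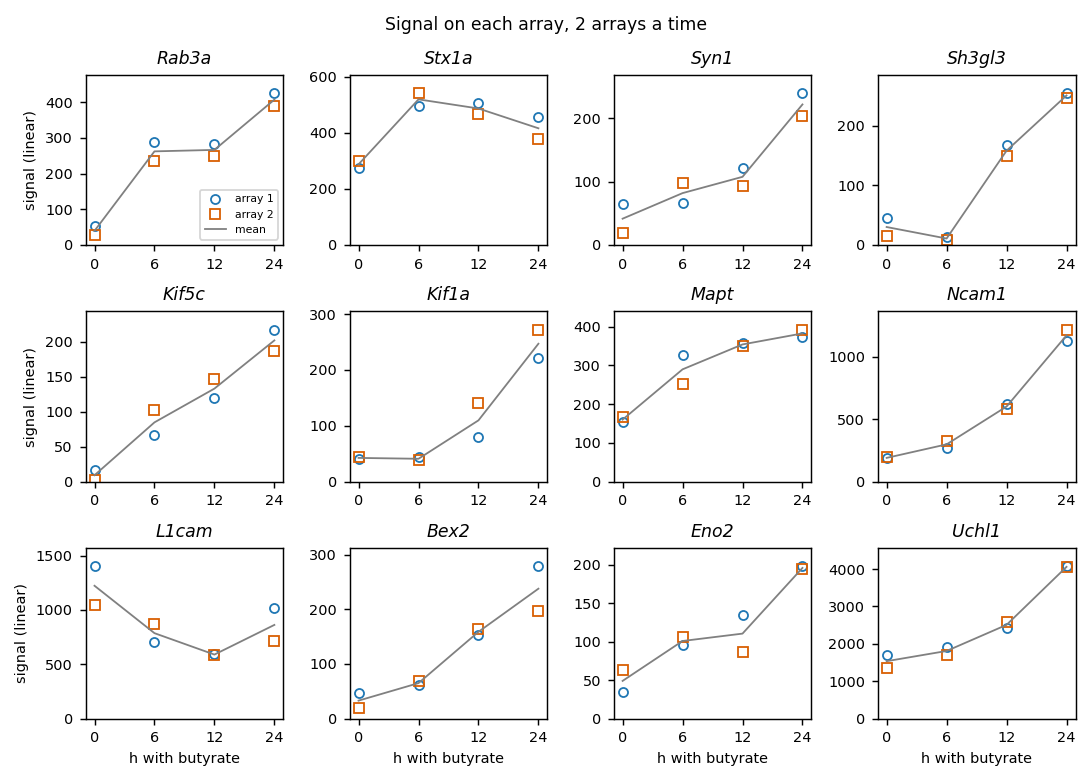
Linear signal (vertical axis, from 0) of 12 of the genes against hours with butyrate; circles are array 1, squares array 2 and lines join the means. Rab3a and Stx1a are up at 6 h. Sh3gl3 is lowest at 6 h, Kif1a is flat until 6 h, and both are up at 12 h. Ncam1 and Uchl1 are highest at 24 h, and L1cam is lowest at 12 h.

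Steps between neighbouring times were tested among the 16 brighter genes. Between 6 and 12 h, 4 were called higher (Sh3gl3, Kif1a, Bex2 and Ncam1) and 0 lower, where 2.03% and 2.14% of the 7340 genes were called. Between 12 and 24 h, 3 were called higher (Kif1a, Ncam1 and Uchl1) and 0 lower, where 1.81% and 3.58% were. Kif1a and Ncam1 were called at both steps. Sh3gl3 and Bex2 passed the filter only through their 12 h and 24 h arrays and Kif1a only through its 24 h arrays, so these counts are a description and are not read against the shares. All 7 calls were lost with every gene tested (adjusted p of 0.056 to 0.164). Except for Sh3gl3, each was also lost without 1 or more single arrays, with adjusted p of up to 0.227 for Kif1a without the second 12 h array.

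Among the same 16 genes against 0 h, 6 were called higher and 0 lower at 6 h, 11 and 2 at 12 h, and 13 and 0 at 24 h. The shares of the 7340 genes were 9.06% and 6.68% at 6 h, 18.1% and 17.5% at 12 h, and 24.6% and 23.5% at 24 h. These 16 were kept partly through their later signals, so the counts describe them and are not evidence about all 37. The 6 of 6 h were Rab3a, Stx1a, Kif5c, Mapt, Ncam1 and Eno2, and the 2 lower at 12 h were L1cam and Rest.

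Rest lay above the signal of 144.7 on every array. Its signals were 460.9 and 644.3 at 0 h, 435.7 and 406.5 at 6 h, 395.5 and 336 at 12 h, and 377.8 and 456.8 at 24 h. Every treated array lay below both 0 h arrays, but the 0 h arrays differed from each other by more than the lower of them differed from any treated array. On the log2 scale the change was -0.35 ± 0.19 at 6 h (adjusted p = 0.256), -0.54 ± 0.19 at 12 h (0.0496) and -0.37 ± 0.19 at 24 h (0.141). The 12 h call was lost in 12 of 17 alternatives, with -0.31 and 0.32 without the second 0 h array, 0.0764 and 0.225 without either 12 h array, 0.0578 without either 6 h array, and 0.0556 without either 24 h array. The p was 0.127 with every gene tested. Rest has 2 further probe sets, both dim (8.3 to 100.3), whose 24 h changes were 0.99 and -0.18. The protein was not measured.

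The corepressor and turnover list for REST held 20 genes, of which 19 were measured and 16 passed the filter. Against 0 h, 1 was higher and 1 lower at 6 h, where 9.06% and 6.68% of the 7340 genes were. At 12 h 4 and 4 were called, beside 18.1% and 17.5% of all, and at 24 h 2 and 6, beside 24.6% and 23.5%. The median log2 change of the 19 at 24 h was -0.11. Hdac1, a deacetylase of these complexes and a target of butyrate, had 1845.1 and 1809.7 at 24 h, against 906.9 and 876.5 at 0 h (1.01 ± 0.18, adjusted p = 0.00113). Hmg20b, a subunit of the complex with the demethylase LSD1, had 437.9 and 485.7 at 24 h, against 280.9 and 240.9 at 0 h (0.76 ± 0.17, 0.00516). Both of these rose, and Rest did not pass at 24 h.

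On the lower side, Usp7, a deubiquitinase that stabilises REST in neural progenitors, had 1209.6 and 1128.4 at 24 h, against 2035.4 and 1982.5 at 0 h (-0.77 ± 0.15, adjusted p = 0.00232). Phf21a, another LSD1 complex subunit, changed by -0.63 ± 0.21 (0.0303). Ctdsp1 and Ctdspl, small phosphatases that act with REST, changed by -0.60 ± 0.16 (0.0101) and -0.54 ± 0.17 (0.0256). With every gene tested, 2 of the 19 were higher and 2 lower at 24 h, beside 13.5% and 11.1% of all genes. The probe set name of Usp7 marks it as able to match related transcripts.

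**Figure D4:**
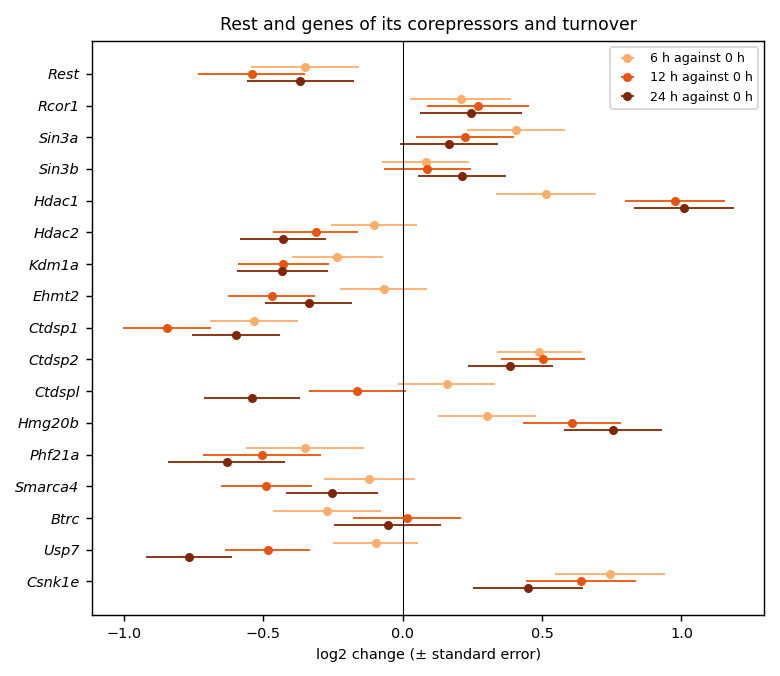
Log2 change of signal + 32 against 0 h (horizontal axis, ± standard error) at 6, 12 and 24 h for Rest and the 16 genes of its corepressors and turnover above the filter. Rest lies left of 0 at all 3 times (-0.35, -0.54 and -0.37), Hdac1 reaches 1.01 at 24 h, and Usp7 reaches -0.77.

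Some of the neuronal genes were set beside relatives of the same families, many of them widely expressed. Of 27 such relatives 23 were measured and 21 passed the filter, and at 24 h 4 were higher and 7 lower, where 24.6% and 23.5% of the 7340 genes were. The median log2 change of the 23 was 0.13. With every gene tested, 3 of the 23 were higher and 7 lower, where 13.5% and 11.1% of all genes were. Beside Rab3a, its relative Rab3d of exocrine granules had 840.5 and 687.0 at 24 h, against 266.4 and 209.9 at 0 h (1.56 ± 0.18, adjusted p = 7.31e-05), so both rose. Beside Stx1a, the syntaxins Stx3 and Stx4a of epithelial membranes were lower at 24 h, by -0.85 ± 0.17 (0.00246) and -0.77 ± 0.17 (0.00412). Vamp8, the endosomal SNARE of exocrine cells, was lower by -0.87 ± 0.15 (0.001), while Vamp2 did not pass. Of the same families, Stx2 changed by 0.26, Vamp7 by 0.27 and Vamp3 by -0.36, and none of these was called. The further Vamp3 probe sets, all above the filter, gave -0.42 to 0.59. Rab27b, Sh3gl1, Map4 and Uchl5 were not called at 24 h either. Snap23, the widespread relative of Snap25, had 479.6 and 376.1 at 24 h, against 405.4 and 287.5 at 0 h (0.29 ± 0.23, 0.328).

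Among motors, Kif5b, the kinesin-1 heavy chain of all cells, had 2727.5 and 2202.3 at 24 h, against 3402.4 and 2920.0 at 0 h, and did not pass (-0.36 ± 0.17, adjusted p = 0.114), while Kif5c rose. The further Kif5b probe sets, all above the filter, gave -0.59 to 0.23 at 24 h. Kif1b, beside Kif1a, was higher by 0.47 ± 0.17 (adjusted p = 0.0434). The further Kif1b probe sets above the filter gave -0.05 to 1.16, and its dim ones gave -0.30 and -0.05. Stmn1, the widespread stathmin beside Stmn2, had 1346.9 and 1259.0 at 24 h, against 3399.9 and 3587.4 at 0 h (-1.40 ± 0.16, 6.31e-05), and its probe set name marks it as able to match related transcripts.

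The tubulins split within the family. Tubb2a, a beta-tubulin abundant in brain, had 64.4 and 52.1 at 0 h, 168.0 and 187.4 at 6 h, 395.1 and 430.2 at 12 h, and 319.1 and 346.4 at 24 h. Like Tubb3 it was highest at 12 h, and at 24 h it was higher by 2.02 ± 0.16 (adjusted p = 8.57e-06). The name of its probe set marks it as able to match related transcripts, and a second, dim one gave 0.40. Tubb6 was lower at 24 h by -1.76 ± 0.19 (6.31e-05), Tubb4b by -0.96 ± 0.24 (0.0071) and Tubb5 by -0.78 ± 0.20 (0.00836), while a second Tubb5 probe set gave 0.15 and a second Tubb4b one -0.08. Bex4, beside Bex2, had 222.0 and 218.8 at 24 h, against 31.5 and 55.5 at 0 h (1.76 ± 0.20, 7.72e-05), and Bex3 did not pass (0.40 ± 0.17, 0.0674). Bex4 passed the filter through its 24 h arrays alone, so its adjusted p is not read as support. No relative was tested against its neuronal gene directly, and these are separate tests against the same 0 h arrays.

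**Figure D5:**
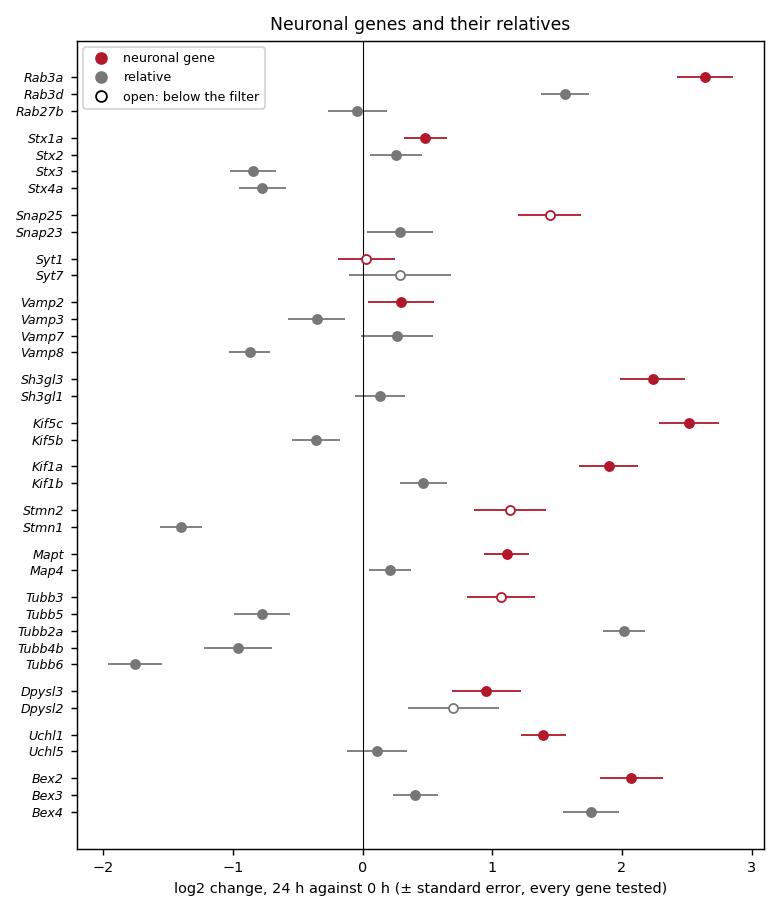
Log2 change of signal + 32 at 24 h against 0 h (horizontal axis, ± standard error with every gene tested) of neuronal genes (red) and their widely expressed relatives (grey), grouped by family; open circles are genes below the filter. Rab3a and Rab3d both lie right of 0, as do Bex2 and Bex4, whereas Stx3, Stx4a, Stmn1, Tubb6, Tubb4b and Tubb5 lie left of 0 beside neuronal relatives on the right.

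A further list of 36 genes with known REST sites or neuronal expression had 28 measured, of which 10 passed the filter. At 24 h 7 of the 10 were higher and 1 lower, where 24.6% and 23.5% of the 7340 genes were, but some, Dnm1 among them, passed the filter only through later arrays. With every gene tested 8 of the 28 were higher and 1 lower, where 13.5% and 11.1% of all genes were. The median log2 change of the 28 was 0.25 at 24 h. Dnm1 passed the filter through its 12 h and 24 h arrays alone, so its adjusted p below is not read as support. Dnm1, the neuronal dynamin that pinches off endocytic vesicles, had 25.9 and 30.3 at 0 h, 51.7 and 118.5 at 6 h, 168.2 and 127.3 at 12 h, and 490.9 and 420.9 at 24 h (3.02 ± 0.25 at 24 h, adjusted p = 1.18e-05). Mapk8ip1, a scaffold that links JNK signalling to kinesin, had 1440.8 and 1149.1 at 24 h, against 363.1 and 190.9 at 0 h (2.15 ± 0.26, 0.000116). The potassium channel gene Kcnh2 was higher by 1.71 ± 0.19 (6.62e-05) and Syt11, a synaptotagmin, by 1.44 ± 0.33 (0.00513), on a probe set whose name marks the same doubt as for Tubb2a. Bdnf, the neurotrophin gene, had 305.9 and 210.3 at 24 h, against 569.8 and 521.1 at 0 h, and was lower by -1.01 ± 0.20 (0.00232).

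Other cell types were checked by their markers. Of 14 neural transcription factors 12 were measured, 0 passed the filter and 0 were called at any time, with summed signals of 481.5 and 613.9 at 24 h, against 560.2 and 576.5 at 0 h. Of 16 enteroendocrine markers 15 were measured, and 1, the carboxypeptidase Cpe, passed the filter, with 4246.2 and 4544.7 at 24 h, against 2941.3 and 2755.0 at 0 h (0.62 ± 0.16, adjusted p = 0.00782). Without Cpe no enteroendocrine marker exceeded 99.7, and their summed signals were 601.2 and 645.6 at 24 h, against 429.1 and 465.5 at 0 h. With every gene tested, 1 of these 14 was called higher at 24 h and 0 lower, where 13.5% and 11.1% of all genes were. The largest change among them was that of Tac1, with 91.1 and 88.5 at 24 h, against 29.7 and 13.7 at 0 h (1.20). Of 15 markers of enteric neurons and glia 11 were measured and 2 passed. Their summed signals were 789.5 and 807.0 at 24 h, against 534.1 and 613.1 at 0 h, and Nos1, neuronal nitric oxide synthase, was higher (1.68 ± 0.16, 2.99e-05), having passed the filter through its 24 h arrays alone. The adjusted p of Nos1 is therefore not read as support. None of these markers was listed at 0. The part of these summed signals in the neuronal changes was not tested.

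Of 10 epithelial markers 9 lay above the filter, with signals of up to 26958.3 for Krt18, as the label of an epithelial line has it, and Vil1, the brush border villin, lay below it. At 24 h 6 were higher, where 24.6% of the 7340 genes were, among them Elf3 (1.47 ± 0.23, adjusted p = 0.000597), Cldn4 (0.77 ± 0.16, 0.00278), Krt8 (0.67 ± 0.16, 0.00614) and Krt18 (0.64 ± 0.19, 0.0201), and 1, Cldn3, was lower (-0.97 ± 0.25, 0.00823). Of the 7340 genes, 23.5% were called lower. With every gene tested, 3 of the 10 epithelial markers were higher and 1 lower, where 13.5% and 11.1% of all genes were. Fibroblast markers passed in 0 of 7 cases.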

How the data were processed

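Per the labels, phycoerythrin-labelled total RNA was read on Affymetrix arrays of the Mouse Expression Array 430A design. The deposited table holds a linear intensity for each of 22690 probe sets on 8 arrays. Each array has a 2% trimmed mean of 500.2, so the values had been scaled before deposit; the sources used here do not name the software that made these signals, and no detection calls were used.

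The 64 control probe sets were left out. Genes were named from the platform annotation, where 20380 probe sets had 1 gene, 691 had several and 1555 were not listed; several-gene probe sets were not used. Of the 20380, 20351 had an Entrez identifier in the RefSeq gene table of GRCm38.p6, which changed 0 symbols. Signals were analysed as log2(signal + 32). Probe sets above 144.7, the median of all values, on at least 2 of 8 arrays were kept, each gene was read from the kept probe set of highest mean, and 7340 genes were fitted with limma 3.58.1 in R 4.3.3 (time as a factor, all 8 arrays, 4 residual degrees of freedom, prior degrees of freedom 6.37). A second fit without the filter held 12393 genes (prior degrees of freedom 3.68). Benjamini-Hochberg adjustment ran over all genes of a fit. The code was tested on simulated data. For arrays, their number, 2 a time, limits the precision.

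The genes and the lists were chosen with earlier results of these data known. All 37 genes are named; of other lists, up to 4 genes called at 24 h with the largest change in each direction, and relatives beside their neuronal gene. Replicate numbers come from the array titles. The deviations of same-numbered arrays from their time means correlated at r of 0.125 to 0.382 in all 6 pairs of times. Same-numbered arrays may thus be paired, but the labels name no pairing and these correlations were not tested. The main fits had no block. The alternatives changed the pseudocount (16 or 64), the filter (none, or 6 of 8 arrays), the probe sets, quantile normalization, limma's trend and robust options, the replicate block, the arrays fitted and each array left out; those combined with no filter were added after seeing the data.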

Additional observations from a re-analysis of the deposited data

How the results depend on the processing

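Of 143 results with a test on these genes, the alternatives gave 2260 values: 2112 kept their direction and their side of the threshold, 134 no longer passed, 14 newly passed and 0 reversed a call. Of 51 calls, 24 held in every alternative, which was 2 of 6 at 6 h against 0 h, 8 of 17 at 12 h, 14 of 21 at 24 h, and 0 of 4 and 0 of 3 between neighbouring times. Each gene counts there in 1 fit, the filtered one if it passed the filter. The fit with a replicate block changed 0 of the 143 results, and with every gene tested it ended the 24 h call of Dpysl3 (adjusted p of 0.0502); its counts of higher genes were 6, 11 and 13 above the filter at 6, 12 and 24 h, 4 and 3 between neighbouring times, and 2, 13 and 18 with every gene tested. Among genes above the filter, the count of higher genes at 6 h was 6, and 2 with no filter. At 12 h it was 11, and 5 with the stricter filter, which left 7 of the 37 genes among 6453 tested. At 24 h it was 13, and 5 with the stricter filter. The 2 lower genes at 12 h became 1 with a pseudocount of 16, no filter, all named probe sets, quantile normalization, or only the 4 arrays compared. Between 6 and 12 h, the 4 higher genes became 0 with no filter, 1 with the stricter filter, 2 with all named probe sets, quantile normalization or the trend and robust options, and 1 with only the 4 arrays compared. Between 12 and 24 h, the 3 became 0 with no filter. With every gene tested, the 2 higher genes at 6 h became 4 with a pseudocount of 64, 4 with the trend and robust options, and 0 with only the 4 arrays compared, and the 0 lower became 1 with a pseudocount of 64. The cause of these moves was not tested beyond the smaller number of genes or arrays. Leaving out each array in turn gave, above the filter, 3 to 5 higher and 0 to 1 lower at 6 h, 8 to 12 and 1 to 2 at 12 h, 10 to 13 and 0 to 1 at 24 h, 1 to 3 higher between 6 and 12 h, and 0 to 4 between 12 and 24 h. With every gene tested it gave 0 to 2, 7 to 13 and 14 to 18 higher, and 0 to 1 lower at 12 h. Over the whole array, 665 genes passed as higher and 490 as lower at 6 h, against 272 and 158 with no filter and 299 to 610 and 160 to 461 without 1 array. Between 6 and 12 h, 149 and 157 became 0 and 1 with no filter, and between 12 and 24 h 133 and 263 became 29 and 88. The dim signals and the 2 arrays a time limit what can be told of the 21 genes below the filter.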
